A study of Arabidopsis thaliana with 4 samples.

Results

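Of the 7470 summits in the deposited list of TCP4 ChIP peaks, 197 (2.64%, exact 95% interval 2.29 to 3.03%) lay inside a gene annotated as a long non-coding RNA (lncRNA) and outside every protein-coding gene body. They were chosen by position alone, from a RefSeq gene table with 3480 lncRNA genes and 27444 protein-coding genes, and their height or fold played no part in the choice. These 197 summits, the members, belonged to 188 numbered peaks and fell in 204 lncRNA genes, because 18 of them lay where lncRNA genes overlap. A further 49 summits lay inside a lncRNA gene and a protein-coding gene at once and were not counted. All 204 genes carry a locus number as their only name in the table.

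The data come from Arabidopsis thaliana seedlings that were stratified for 3 days at 4 °C, given white light for 3 to 4 h and then kept in darkness for 4 days. An anti-Myc antibody was used for ChIP in both genotypes. Seedlings that overexpress TCP4, labelled mTCP4, gave 1 ChIP library and 1 input library, and wild-type seedlings, labelled Col, gave the same pair. The labels give no promoter for the overexpression and no line number. With 1 library a group there is no replicate error, no test between genotypes was made, and all 95% intervals cover counting error only. Intervals of fold cover the count of the pileup alone. They take the control level as fixed, so they are narrower than the full counting error of the ratio. Summits are not replicates, and those of 1 peak or 1 gene share their source.

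TCP4 is a CIN-type TCP transcription factor that promotes the passage from cell division to differentiation in leaves and cotyledons, and its transcript is a target of the microRNA miR319. Long non-coding RNAs are transcripts without a long open reading frame. In plants some of them act in cis on a neighbouring gene, some bind chromatin or splicing proteins, and some are precursors or decoys of small RNAs, while most annotated loci have no described role. A ChIP summit inside such a gene marks where DNA was enriched and does not show that the RNA is made or that its level depends on TCP4.

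Summits were denser in lncRNA genes than in other DNA outside protein-coding genes. The 0.889 Mb that lie in a lncRNA gene and in no protein-coding gene held 22.2 summits per 100 kb (19.2 to 25.5). The 53.8 Mb in neither kind of gene held 9.41 per 100 kb (9.16 to 9.68), and protein-coding gene bodies held 3.43 per 100 kb (3.29 to 3.58). The lncRNA density was 2.35 times (2.03 to 2.72) that of DNA in neither kind of gene. Of that DNA, 12.8 Mb lay more than 5000 bp from a protein-coding gene and held 59 summits, or 0.459 per 100 kb. Against only the bases over 1000 and up to 3000 bp outside lncRNA genes, a comparison chosen after the data were seen, the ratio was 1.61 (1.36 to 1.90), with 22.2 against 13.8 summits per 100 kb.

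By distance from the nearest protein-coding gene, the interval of the ratio lay above 1 in each class from 201 to 5000 bp, and included 1 within 200 bp and beyond 5000 bp. Within 1 to 200 bp of a protein-coding gene, lncRNA genes held 27 summits at 23 per 100 kb, against 15.8 in neither kind of gene (ratio 1.45, 0.952 to 2.12). The ratio was 1.56 (1.05 to 2.24) at 201 to 500 bp, 1.81 (1.37 to 2.36) at 501 to 1000 bp and 2.0 (1.48 to 2.66) at distances over 1000 and up to 2000 bp. At 2001 to 5000 bp it was 3.27 (2.17 to 4.74), with 25.8 summits per 100 kb in lncRNA genes against 7.90. The density in lncRNA genes ran from 18.0 to 25.8 over these 5 classes, while the density in neither kind of gene ran from 7.90 to 15.8. Beyond 5000 bp only 2 members were left.

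**Figure D1:**
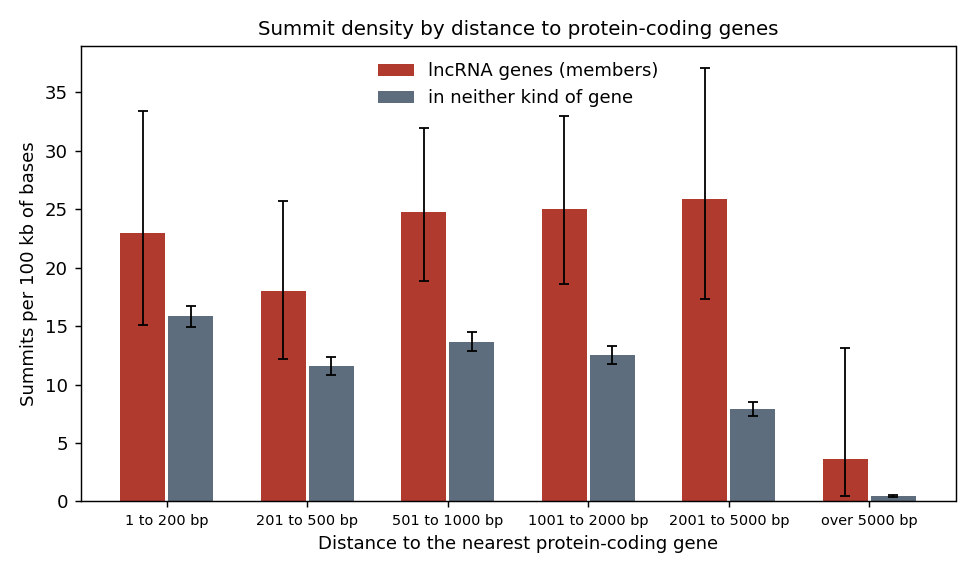
Bars give summits per 100 kb of bases (y axis) in lncRNA genes and in neither kind of gene, by distance to the nearest protein-coding gene (x axis), with exact 95% Poisson intervals. Up to 5000 bp the lncRNA bars stand between 18.0 and 25.8, and the others between 7.90 and 15.8.

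No excess was seen when only summits at the lowest control level were counted, a count that holds few members. The control level is the background that the peak caller set against the pileup at a summit, and the list does not name the library it came from. Its lowest value, 12.92, was found at 18.3% of all summits. Only 17 of the 197 members (8.63%, 5.11 to 13.5%) were at that level, against 1068 of 5062 summits in neither kind of gene (21.1%). With those summits alone the density ratio was 0.963 (0.559 to 1.55), and against bases over 1000 and up to 3000 bp outside lncRNA genes it was 0.739 (0.415 to 1.24). The control level of bases without a summit is not in the list, so both ratios keep all bases as their denominator. They therefore restate the smaller share of members at that level and cannot show whether the excess holds there. The part of the control level in the density difference was not tested.

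Within lncRNA genes the summits were densest 101 to 200 bp from the nearest gene end. There, 79 summits gave 31.4 per 100 kb (24.8 to 39.1). The density was 22.3 (16.3 to 29.8) at 51 to 100 bp and 19.4 (13.9 to 26.4) at 1 to 50 bp inside the end. More than 200 bp inside it was 14.2 (9.74 to 20.1), a place that only the longer lncRNA genes have. Just outside the end, at 1 to 100 bp, it was 15.1 (11.6 to 19.3), and at 101 to 200 bp it was 9.80 (7.0 to 13.3). The interval at 101 to 200 bp inside overlapped those at 1 to 50 and 51 to 100 bp inside. It also overlapped that of 1 outside bin, 601 to 700 bp, where the density was 20.9 (16.1 to 26.7). The table gives no strand, so starts and ends of transcription were not told apart.

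**Figure D2:**
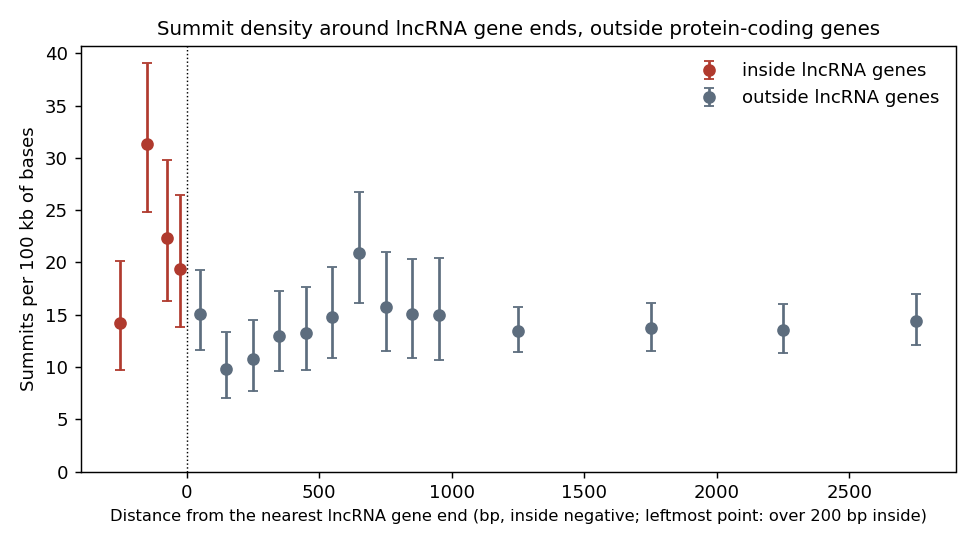
Points give summits per 100 kb of bases outside protein-coding genes (y axis) by distance from the nearest lncRNA gene end in bp (x axis, inside negative), with exact 95% Poisson intervals. The highest point, 31.4, lies 101 to 200 bp inside the genes, and the points over 1000 and up to 3000 bp outside lie between 13.5 and 14.4.

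Most other kinds of non-coding gene had fewer summits for their length. Outside protein-coding genes, lncRNA genes held 22.2 summits per 100 kb, against 8.20 (5.71 to 11.4) for genes of the class misc_RNA and 7.04 (3.94 to 11.6) for the class ncRNA. The classes are not fully apart, since 4 members also lay inside a gene of the class ncRNA. Pseudogenes, with 9.34 Mb, held 4 summits in all, or 0.0428 per 100 kb (0.0117 to 0.110). The tRNA genes also held 4 summits, at 9.21 per 100 kb, but on so few bases that the interval, 2.51 to 23.6, overlapped that of lncRNA genes. The 0.914 Mb where lncRNA and protein-coding genes overlap held 49 summits at 5.36 per 100 kb (3.97 to 7.09), against 3.40 (3.26 to 3.55) in protein-coding genes alone (ratio 1.58, 1.16 to 2.09).

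Counted by gene, 204 of the 2553 lncRNA genes with any base outside protein-coding genes held a member (7.99%, 6.97 to 9.11%). Summits anywhere inside the gene were found in 7.01% of all lncRNA genes and in 6.75% of protein-coding genes, so the shares by gene were close. The genes differ in size, however, with a median length of 343 bp for lncRNA genes and 2078 bp for protein-coding genes. The length classes count lncRNA genes with any base outside protein-coding genes, and all protein-coding genes. Among genes of 301 to 500 bp, 90 of 931 lncRNA genes (9.67%, 7.85 to 11.7%) held a member, against 9 of 781 protein-coding genes with a summit inside (1.15%, 0.528 to 2.18%). Among genes of 501 to 1000 bp the shares were 9.54% (6.80 to 12.9%) and 2.55% (2.03 to 3.16%). The class over 1000 and up to 2000 bp went the other way, with 3 of 109 lncRNA genes (2.75%, 0.571 to 7.83%) and 5.23% of protein-coding genes (4.77 to 5.72%), and the intervals overlapped. At 300 bp or less the shares were 5.95% (4.58 to 7.57%) and 2.60% (1.35 to 4.50%). Above 2000 bp they were 13.1% (7.18 to 21.4%) and 9.01% (8.55 to 9.49%), with overlapping intervals. Members were spread over all chromosomes, from 2.01% of the summits on chromosome 4 to 3.08% on chromosome 3.

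The fold of the members was like that of other summits. Fold is the deposited ratio of pileup to control level at the summit, with 1 added to each. It ran from 1.67 to 12.2 in the members with a median of 3.42, against 1.70 to 16.4 with a median of 3.51 for summits in neither kind of gene and a median of 3.43 for all summits. A fold of at least 5 was reached by 43 of 197 members (21.8%, 16.3 to 28.3%), against 21.3% of all summits, so the share of high folds was close to the background. At the ends of the range, 5 members (2.54%, 0.829 to 5.82%) had a fold of at least 10. The share was 1.11% in neither kind of gene and 1.04% of all summits. A fold under 2.5 was found for 36 members (18.3%, 13.1 to 24.4%), against 12.3% (11.4 to 13.2%) in neither kind of gene.

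**Figure D3:**
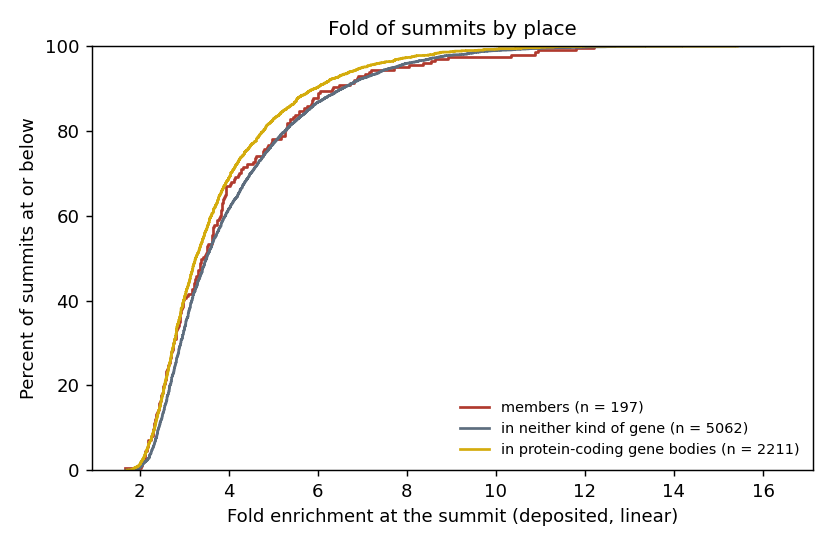
Curves give the percent of summits (y axis) at or below each deposited fold (x axis, linear) for the 197 members, the 5062 summits in neither kind of gene and the 2211 in protein-coding gene bodies. The medians lie at 3.42, 3.51 and 3.26.

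Both parts of the ratio were higher in the members. The median pileup was 73.7 in the members and 64.1 in neither kind of gene, and the median control level was 20 and 16. A control level of 20 to 30 was found at 36.5% of the members, against 20.8% of summits in neither kind of gene, and a level above 30 at 14.7% against 4.09%. Of the 300 summits with the highest pileup in the whole list, 26 were members. That is 13.2% of the members (8.81 to 18.7%), against 3.95% (3.43 to 4.52%) of summits in neither kind of gene. These 26 members had a lower median fold than the other 274 of the 300, 6.42 against 8.01. Their median control level was higher, 24 against 20. The highest pileup of the list, 261.6, was at the member in AT1G05863, where the control level was 46.0 and the fold 5.59 (5.02 to 6.20). The next member by pileup, in AT1G08673, had 227 over a control level of 39.0 and a fold of 5.70 (5.08 to 6.37). At like control levels the median folds were close. At control levels of 15 to 20 the median fold was 3.66 in 56 members and 3.49 in neither kind of gene, and at 20 to 30 it was 3.29 in 72 members and 3.21. Above 30 it was 2.59 in 29 members and 2.66. A fold of at least 5 was found above 30 at 4 of 29 members (13.8%, 3.89 to 31.7%) and 8 of 207 summits in neither kind of gene (3.86%, 1.68 to 7.47%), with overlapping intervals. At 20 to 30 the shares were 20.8% (12.2 to 32%) and 15.9% (13.7 to 18.2%). At 15 to 20 they were 25% (14.4 to 38.4%) and 22.3% (20.3 to 24.3%). Below 15 the order was reversed, at 25% (12.7 to 41.2%) of 40 members and 29.2% (27.2 to 31.2%). The median folds there were 3.73 and 3.78. At each level the intervals of the shares overlapped.

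**Figure D4:**
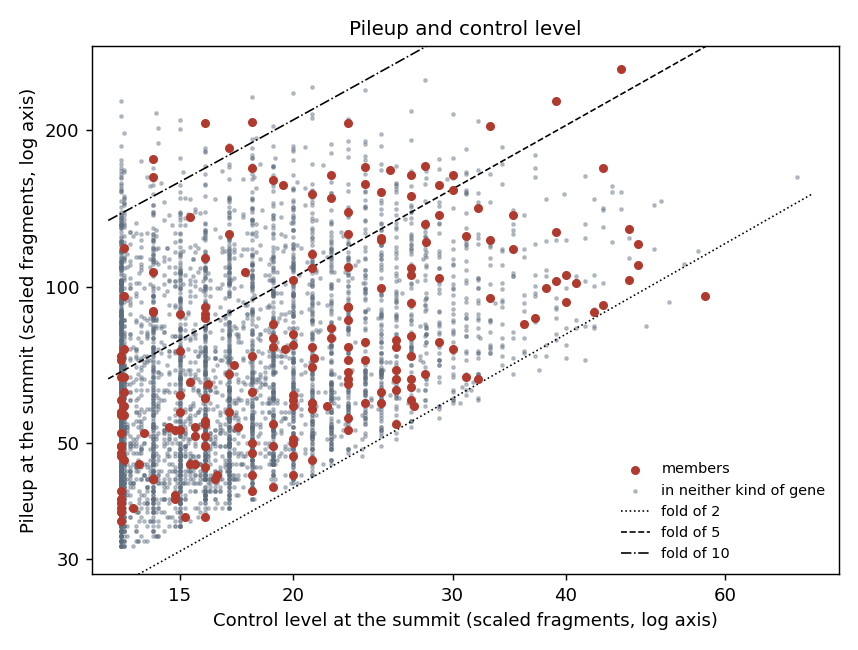
Each point is a summit, with the control level on the x axis and the pileup on the y axis, both in scaled fragments on log axes, and lines of equal fold at 2, 5 and 10. Members reach farther right than most summits in neither kind of gene, with medians of 20 and 16 on the x axis.

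The 20 members with the highest fold lay 44 to 2505 bp from their nearest protein-coding gene. The highest, 12.2 (10.8 to 13.7), was at position 17504782 of chromosome 2 in AT2G09320, a lncRNA gene of 382 bp. It stood 2096 bp from AT2G41930 and 2561 bp on the other side from ZFP8, a zinc finger gene of trichome formation, and ranked 14 among all summits. The next, 11.8 (10.4 to 13.4), was at position 5142917 of chromosome 3 in AT3G03075, only 44 bp from AT3G15260. AT2G09730 held a fold of 11 (9.71 to 12.3) at position 19101098 of chromosome 2, 725 bp from AT2G46520 and 3534 bp from ARF11, an auxin response factor. AT3G06615 had 10.9 (9.49 to 12.4) at position 15357260 of chromosome 3, in a region with 100 protein-coding genes per Mb, the lowest gene density of any member. AT5G03935 had 10.3 (9.10 to 11.7) at position 8726930 of chromosome 5, between AT5G25210 at 1113 bp and the homeobox gene KNAT3 at 9014 bp. The intervals of these 5 summits overlapped one another.

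The rest of the highest 20 had folds from 6.35 to 8.93. AT3G03035 (8.93) lay between AT3G15220 at 995 bp and ERF4, a repressor of ethylene-responsive genes, at 3033 bp. AT1G04453 (8.64) stood 807 bp from TPS7, a trehalose-phosphate synthase homologue, and AT5G02495 (8.55) 1142 bp from AT5G16030. AT3G05905 (8.37) lay in a gap of 268 bp between AT3G05900 and AT3G05910. Lower in this group were AT2G09535 (7.71) near AT2G44660, AT1G05623 (7.16) near AT1G21060, AT2G09355 (6.73) near AT2G42290 and AT1G09293 (6.48) near AT1G71970. AT4G06335 (7.19) stood 96 bp from RALFL33, which encodes a secreted RALF-type peptide. AT2G09295 (6.88) stood 404 bp from MIZ1, a gene needed for the bending of roots towards water, and AT1G07873 (6.82) 782 bp from the kinase gene ATMAP4K ALPHA1 and 991 bp from ERF8. AT5G04345 (7.06) stood 180 bp from TPR3, a corepressor gene of the TOPLESS family. The remaining members of the 20 had LOX2, IPT2 and BRC1 as their nearest genes and stand among the lists of neighbours.

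**Figure D5:**
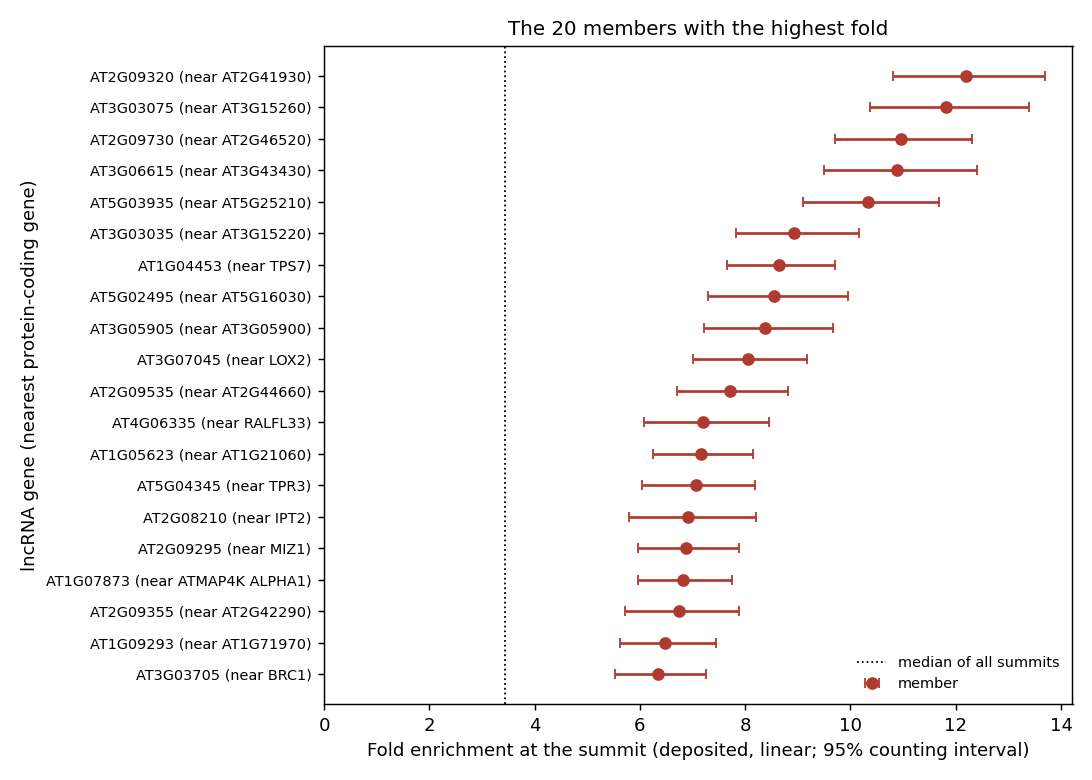
Points give the deposited fold (x axis, linear) of the 20 members with the highest fold, with 95% counting intervals, by lncRNA gene and nearest protein-coding gene (y axis). All 20 intervals lie above the median fold of all summits, 3.43 (dotted line).

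The 197 members had 182 distinct nearest protein-coding genes. Neighbours were sorted into 17 lists of hormone, light, clock, growth, wall and transcription factor genes, and each list held 0 to 3 members. The lists do not hold every gene of their kind. PAR1, CIP1 and BEE3, for example, were nearest genes of members and are on none of them. For each list with a member, the exact interval of the members' share included the share over all 5259 summits outside protein-coding genes. In the jasmonate list, LOX2, a lipoxygenase of jasmonate synthesis, was 972 bp from the member in AT3G07045, which had a fold of 8.05 (7.02 to 9.18) at position 16524273 of chromosome 3. JAZ6, a repressor of jasmonate responses, was 371 bp from a member in AT1G09307 with a fold of 2.48 (2.03 to 3.00). Those were 2 of 197 members (1.02%), against 24 of 5259 summits outside protein-coding genes (0.456%).

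Auxin genes beside members were AXR3, an Aux/IAA repressor (4.55 in AT1G04253 at 1687 bp), IAA2 of the same family (2.45 in AT3G04375 at 2908 bp), and the carriers PIN4 (3.35 in AT2G03985 at 958 bp) and AUX1 (2.43 in AT2G08935 at 222 bp). SAUR genes, which drive cell elongation downstream of auxin, were nearest to 0 of 197 members, which allows a share of up to 1.52% when a count of 0 is taken to allow 3 (exact 95% upper limit 1.86%). They were nearest to 28 of the 5259 summits outside protein-coding genes (0.532%), so no difference was detectable at this number. The table gives the name SAUR21 to 2 loci, and AT5G01830, the nearest gene of 1 member, was not counted. That member lay in AT5G00800 at 1939 bp, with a fold of 3.65. Counting it would give 1 of 197 members (0.508%).

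Genes on the gibberellin list were nearest to 3 members (1.52%), against 0.456% of summits outside protein-coding genes, and both genes found encode DELLA repressors. RGA, listed as RGA1, was 1616 bp from a member in AT2G04015 with a fold of 4.97 (4.21 to 5.83). GAI was the nearest gene of a pair of members inside AT1G05133, at 1962 bp with a fold of 3.30 (2.82 to 3.85) and at 2284 bp with a fold of 2.63 (2.09 to 3.26). Of cytokinin genes, IPT2, a tRNA isopentenyltransferase, was 2299 bp from a member in AT2G08210 with a fold of 6.91 (5.79 to 8.20). IPT7, an enzyme of cytokinin synthesis, was nearest to a pair of members inside the overlapping genes AT3G04565 and AT3G04575, with folds of 2.51 and 2.96. The abscisic acid receptor gene PYL4 was 1063 bp from a member in AT2G08950 with a fold of 4.06.

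Genes on the light signalling list were nearest to 3 of 197 members (1.52%), against 0.742% of summits outside protein-coding genes. Those on the clock list were nearest to 1 (0.508%) against 0.133%. PIL6, also named PIF5, a phytochrome-interacting factor of dark growth, was 465 bp from a member in AT3G09185, which had a fold of 6.33 (5.53 to 7.20) at position 21831302 of chromosome 3. CO, the B-box regulator of flowering in long days, was 962 bp from a member in AT5G15845 with a fold of 4.41 (3.52 to 5.46), and BBX9 was 57 bp from a member in AT4G06300 with a fold of 3.38. PRR5, a transcriptional repressor of the clock, was 1315 bp from a member in AT5G03755 with a fold of 5.59 (4.64 to 6.67).

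Among transcription factor families, BRC1 (TCP18), a TCP gene that restrains axillary bud growth, was 2505 bp from a member in AT3G03705 with a fold of 6.35 (5.53 to 7.25). Of the 22 TCP genes it was the only one that was the nearest gene of a member, 1 of 197 (0.508%) against 0.361% of summits outside protein-coding genes. MYB21, a regulator of stamen growth, had a member at 1827 bp with a fold of 6.06 (5.04 to 7.22), MYB16 at 1551 bp with 4.77 and MYB108 at 1982 bp with 2.43. NAC080 and NAC019 had members with folds of 2.38 and 2.33. No member was nearest to a gene of the ethylene, brassinosteroid, growth-regulating and boundary, XTH and expansin, or WRKY lists. Those 5 lists held 0.133 to 0.951% of summits outside protein-coding genes each, all below the limit that 0 of 197 allows. ERF4, ERF8, ARF11 and KNAT3, named above, were the farther neighbour of their summit and enter no list count.

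In distance to protein-coding genes the members ran from 35 to 8241 bp with a median of 833 bp, against a median of 663 bp for summits in neither kind of gene. Within 200 bp lay 27 members (13.7%, 9.23 to 19.3%), against 23.8% (22.6 to 25%) in neither kind of gene. Within 1000 bp the shares were 58.9% (51.7 to 65.8%) and 64.2%, and within 2000 bp 84.3% and 85.6%. The gap between the flanking protein-coding genes was like that of other summits, with a median of 3601 bp for members and 3276 bp in neither kind of gene. Across the members, fold and distance to the nearest protein-coding gene had a Spearman rho of 0.0923 (n = 197 summits of 1 library pair, a description).

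More than 1 member was found in 10 lncRNA genes. AT4G08385, of 524 bp, held 3 summits of 1 numbered peak near SIP3, with folds of 2.54, 2.81 and 3.17. The intervals of these 3 overlapped. AT1G05903, with folds of 3.00 and 4.28, AT1G08237 (3.65 and 3.62), AT2G08955 (4.03 and 3.66), AT2G09050 (2.93 and 2.88), AT3G01985 (3.73 and 2.67) and AT5G02955 (3.31 and 2.58) held pairs, besides the genes near GAI and IPT7. None of these genes held a member with a fold of at least 5.

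Long lncRNA genes held their members close to protein-coding genes. The 13 members in lncRNA genes over 2000 bp lay 52 to 962 bp from a protein-coding gene, and each of these lncRNA genes overlapped a protein-coding gene, so that only its remaining bases could hold a member. Of the 184 members in shorter lncRNA genes, 103 lay within 1000 bp of a protein-coding gene. The lncRNA gene overlapped a protein-coding gene for 18 of the 184. The median fold was 3.46 in the long genes and 3.40 in the shorter ones, with a median control level of 14.8 and 20. The longest, AT5G45472 with 9515 bp, held a fold of 2.61 at 349 bp from AT5G45470. AT5G18245, of 5323 bp, held the lowest fold of the whole list, 1.67 (1.40 to 1.98), 122 bp from MYR1, over a control level of 57.0. The next lowest members were in AT2G07005 near HMGB4 (2.04), AT5G09775 near AT5G66820 (2.05), AT3G03125 near AT3G15518 (2.06) and AT1G06147 near RLP4 (2.07). Their control levels ran from 26.0 to 44.0.

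Many members shared a numbered peak with another summit. This held for 62 members (31.5%, 25.1 to 38.5%), against 31.9% of summits in neither kind of gene. In 34 of the 62 the member had the highest fold of its peak, 27 had a higher summit beside them and 1 was tied. In 15 cases a higher summit of the peak lay inside or within 1000 bp of a protein-coding gene. The member in AT1G05623 (7.16, 6.25 to 8.16) had a summit with 8.42 (7.24 to 9.74) 282 bp away, closer to AT1G21060. The member in AT4G07805 (5.27, 4.59 to 6.02) had one with 7.72 (6.58 to 9.0) 696 bp away, 466 bp from AT4G27340, and these intervals did not overlap. At PYL4 the pair was 4.06 in AT2G08950 and 4.17 nearer the gene. At AT2G38330 the higher summit of the pair, 4.03 against 3.66, was a member too. At KOM the member in AT1G09763 had 3.66 at 154 bp from the gene, and the other summit 3.70 at 406 bp. Over the 15 cases the fold of the higher summit was 1.01 to 3.58 times that of the member, with a median of 1.18, and the intervals did not overlap in 4 of them. The widest gap, named after its values were seen, was at AT3G19002, where the member had 2.70 (2.03 to 3.53) and a summit 442 bp away, 196 bp from AT3G19010, had 9.65 (8.35 to 11.1). The others of the 4, besides AT4G07805, were AT3G03925 with 2.29 against 5.29 inside AT3G19900, and AT5G09695 with 2.76 against 5.40 at 891 bp from IDD1. In AT5G09695 the member was the nearer to IDD1, at 401 bp.

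Of 15 described non-coding RNA genes looked up by locus, FLORE is the only one that the table classes as lncRNA, so the other 14 could hold no member by the choice of biotype. None of the 15 held a summit of any kind, against 7.01% of all lncRNA genes, a share at which 0 of 15 says little. The nearest summit to FLORE was 800 bp away, inside the protein-coding gene AT1G69570, with a fold of 2.92. APOLO, an auxin-induced RNA that acts on chromatin loops, is classed as protein-coding in the table. A summit with a fold of 4.84 (3.90 to 5.93) lay 1 bp outside it, at position 14596564 of chromosome 2. Of the trans-acting siRNA precursors, TAS3, whose siRNAs target auxin response factors, had a summit 106 bp away with a fold of 4.46 (3.67 to 5.36), and TAS1A had one 987 bp away with 8.07. The nearest summits to TAS3B and TAS3C lay 2081 and 4729 bp away, with folds of 6.21 and 3.20. For TAS1B, TAS1C, TAS2 and TAS4 the nearest summit lay 5533 to 8434 bp away. For IPS1, AT4, ASCO, MARS and ELENA1 it lay 5799 to 27471 bp away.

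At the border of the choice, the member in AT1G04063 lay on an end base of its gene with a fold of 5.77, and the member in AT5G03815 likewise with 4.2. Just outside, summits 3 bp from a lncRNA gene had folds of 2.52 near AT2G30985 and 6.74 near PEX5. The 103 summits in neither kind of gene within 200 bp outside a lncRNA gene had a median fold of 3.40, with a range of 1.97 to 10.7.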

How the data were processed

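Bowtie 0.12.9, MACS2 2.1.1 and build TAIR10 are named per the submitters' processing notes. The calling threshold, and which library served as control, is not given in the sources used here. The deposited list gives, per the file headers, the position of each summit, its pileup (a signal of scaled fragments), its fold (the ratio of pileup to control level) and p-values and q-values as −log10. The deposited intervals run 5000 bp to each side of 7469 summits, so the summit was used as the position. All pileups were whole multiples of 0.737 within 0.011, so 1 step was taken as 1 fragment. A summit had 43 to 355 fragments. Library totals were not analysed here. The control level was recovered with the MACS2 pseudocount of 1.

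Genes came from a RefSeq table of assembly TAIR10.1, which gives no strand; none of its coordinates are printed. The share of summits in protein-coding genes was lowest (29.6%) with no shift, over shifts of up to 1000 bp in steps of 100 bp. Intervals are exact Clopper-Pearson, Poisson or conditional 95% intervals, computed with Python 3.11.15 and scipy 1.17.1. Only the coverage of the Poisson interval was checked on simulated counts. The planned motif description was not run, since genome sequence was not used here. The members, lists and settings were chosen with earlier results of these data known. Named genes are the 20 highest and 5 lowest members by fold, genes with several members, 15 described non-coding RNAs, up to 4 members a neighbour list, and 5 members beside a higher summit at a gene. Neighbour lists match a symbol or synonym of the table, except that AT5G01830 was left out of the SAUR list. Genes, summits and bases are not replicates, and no p-value was computed.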

Additional observations from a re-analysis of the deposited data

How the results depend on the processing

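Over 9 alternatives, 28 of 41 values stayed within the interval or spread of the reported one (1.5 times for a count). The density ratio fell to the other side of 1 at the lowest control level only, with an interval that includes 1. That ratio keeps all bases as its denominator, so it restates the smaller share of members at that level. With only the upper 50% of summits by fold, there were 98 members, with 4.11% of lncRNA genes holding one and a median fold of 4.79, all by construction. With only summits at the lowest control level there were 17 members, 0.744% of lncRNA genes held one, the median distance to protein-coding genes was 545 bp and the density ratio 0.963, against 2.35 as reported. Widening lncRNA genes by 200 bp gave 300 members, 9.98% of genes and a ratio of 1.87. Keeping only summits at least 50 bp inside gave 6.63% of genes. Not leaving out protein-coding genes gave a median distance of 641.5 bp. The ratio against bases over 1000 and up to 3000 bp outside lncRNA genes, chosen after the data were seen, was 1.61. In the other alternatives it ran from 2.22 to 2.64. No paired analysis was possible because each group has 1 library. For the same reason no library could be left out in turn. The least covered member had 48 fragments, which limits the precision of its fold.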

Other observations

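Genes of the TOPLESS corepressor family, which act with Aux/IAA and JAZ repressors, appeared among the nearest neighbours and were singled out after their values were seen. TPR3 stood 180 bp from the member in AT5G04345, with a fold of 7.06 (6.05 to 8.19). TPL, the founding gene, stood 293 bp from a member in AT1G05197 with a fold of 2.98, and TPR2 of the same family (AT3G16830) 368 bp from a member in AT3G03375 with a fold of 2.74. The table gives the name TPR2 also to a tetratricopeptide gene, AT1G04130, which stood 694 bp from a member in AT1G04243 with a fold of 2.13. The folds at TPL and AT3G16830 lay below the median of all summits, 3.43. The share of other summits nearest to this family was not counted, so no excess can be read from these cases. These are values of 1 library pair with no test.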
